A study of Mus musculus with 5 samples.

Results

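Runx3 binding and H3K4me1 marking were examined at 10 genes that encode the Jun, Fos and BATF proteins and their IRF partners, namely Jun, Junb, Jund, Fos, Fosb, Fosl2, Batf, Batf3, Irf4 and Irf8. Runx3 belongs to the RUNX transcription factors and acts in CD8+ T cells and natural killer cells. H3K4me1, histone H3 with a monomethylated lysine, marks the chromatin of enhancers in particular. All regions of the 2 deposited lists that overlapped a gene body (GENCODE vM1 annotation of mm9) extended by 30 kb on each side were taken. This gave 16 of the 9135 Runx3-bound regions and 42 of the 18992 H3K4me1-marked regions, and no region fell to more than 1 of the 10 genes. The Runx3-bound region nearest to the limit on the inside lay 28.8 kb from the body of Fos, and the next on the outside, which were not counted, lay 30.1 kb from Fosb and 31.6 kb from Fosl2.

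CD8+ T cells (CD8-TC) from spleens of ICR mice had been isolated on anti-CD8 beads, stimulated for 2 days with plate-bound anti-CD3e and soluble anti-CD28, and kept for 4 more days in recombinant human IL-2 at 100 u/ml. All 5 libraries came from this 1 condition, so there was neither a resting nor a Runx3-deficient sample. Antibody against Runx3 gave 2 libraries, antibody against H3K4me1 gave 1, and non-immune serum (NIS), the control, gave 2. For each antibody the authors joined the reads and made a single list of peaks. Hence no value below has a replicate error, no test over samples was possible, and since the lists carry neither read numbers nor peak heights, the depth of a region is unknown. Each count at the 10 genes is set beside the same count over all 22350 protein-coding genes or all regions, as a description. Intervals are 95% Wilson intervals that cover counting error among regions only. The lists can be set against cell type markers only by position. Within 30 kb of their bodies, the T cell genes Cd3e, Cd8a and Cd8b1 had 9, 6 and 10 H3K4me1-marked regions, the B cell genes Ms4a1 and Cd79a had 0 and 2, and the dendritic cell genes Itgax, Clec9a and Xcr1 had 5, 2 and 5. These counts do not measure expression.

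Jun and Fos proteins form the dimeric factor AP-1 through their leucine zippers. AP-1 is induced by TCR and CD28 signals and binds the 7-base motif TGANTCA (N is any base). BATF and BATF3 are small members of the same family that pair with Jun proteins, and in T cells such pairs bind jointly with IRF4 or IRF8 at composite sites that join an AP-1 motif and a short IRF motif. BATF and IRF4 are known for their role in the expansion and effector differentiation of CD8-TC. BATF3 and IRF8 are also known as factors of dendritic cell development.

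The sequences around the motifs are shown first so that the spacing of the motifs discussed later can be read. Each is given 5′ to 3′ on the strand of its gene (mm9), in lower case, with capitals marking RUNX motifs (TGTGGT and TGTGGC, and the forms TGCGGT and TGCGGC) and AP-1 motifs on either strand. A motif read on the other strand appears as its reverse complement, such as ACCACA for TGTGGT. The first set holds the 3 regions in which an AP-1 motif occurred, at Irf8 (chr8:123239356-123239466, plus strand), Fosb (chr7:19918413-19918457, minus strand) and Batf (chr12:87002097-87002133, plus strand).
Irf8, 20.8 kb upstream: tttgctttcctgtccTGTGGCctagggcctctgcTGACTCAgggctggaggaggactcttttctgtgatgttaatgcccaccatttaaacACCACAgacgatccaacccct
Fosb, 22.8 kb upstream: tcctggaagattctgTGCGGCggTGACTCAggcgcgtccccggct
Batf, 25.7 kb upstream: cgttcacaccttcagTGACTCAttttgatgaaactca

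The second set holds regions close to or inside their gene that held RUNX motifs and no AP-1 motif, over or upstream of the start of Batf (chr12:87027506-87027634, plus strand), Batf3 (chr1:192921358-192921393, plus strand) and Jund (chr8:73219371-73219485, plus strand) and in the body of Fosl2 (chr5:32451337-32451440, plus strand). The Batf sequence ends 16 bases inside the transcript, and the second marked motif ends on the base where the transcript starts.
Batf, at the start: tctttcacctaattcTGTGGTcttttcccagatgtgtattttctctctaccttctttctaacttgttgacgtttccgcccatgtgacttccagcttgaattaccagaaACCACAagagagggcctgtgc
Batf3, 0.972 kb upstream: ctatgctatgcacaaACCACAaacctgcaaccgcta
Jund, 2.28 kb upstream: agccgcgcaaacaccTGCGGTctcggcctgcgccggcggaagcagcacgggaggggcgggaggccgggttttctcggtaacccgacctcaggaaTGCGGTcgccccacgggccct
Fosl2, 12.4 kb downstream: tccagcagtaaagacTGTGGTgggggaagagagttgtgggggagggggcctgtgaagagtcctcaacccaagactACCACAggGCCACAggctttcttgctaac

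The third set holds the distal regions nearest to Fos (chr12:86788061-86788203, plus strand) and Irf8 (chr8:123250078-123250290, plus strand), which both carried the TGTGGT form.
Fos, 26.7 kb upstream: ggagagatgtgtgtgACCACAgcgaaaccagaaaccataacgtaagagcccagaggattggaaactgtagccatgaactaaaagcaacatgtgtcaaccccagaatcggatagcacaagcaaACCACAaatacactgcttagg
Irf8, 10.1 kb upstream: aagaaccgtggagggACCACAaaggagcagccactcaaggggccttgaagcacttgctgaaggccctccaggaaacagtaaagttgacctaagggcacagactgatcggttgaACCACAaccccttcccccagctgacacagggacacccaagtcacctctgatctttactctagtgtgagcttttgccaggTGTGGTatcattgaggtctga

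The question was which of these genes had Runx3 nearby and how such regions related to enhancer-type chromatin. A Runx3-bound region was found at 9 of the 10 genes, compared to 39.6% of all protein-coding genes (8840 of 22350). Of the 9 genes, 7 had 2 regions (18.1% of all genes had 2 or more) and 2 had 1 region. None had 3 or more, compared to 7.92% of all genes. Irf4 was the gene without Runx3. All 10 genes had at least 1 H3K4me1-marked region, compared to 44.6% of all genes. A Runx3-bound region that itself overlapped H3K4me1 was found at 7 genes (21.5% of all), the exceptions being Fosb, Batf3 and Irf4. The number of marked regions went from 1 at Jun to 8 at Irf8 and 10 at Irf4. Gene windows differ in length and neighbouring genes share regions, and their part in these shares was not tested. All protein-coding genes include 10600 with neither kind of region, and the comparison was not limited to genes active in T cells. The region at Fosb lay nearer to the start of Ercc1.

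**Figure D1:**
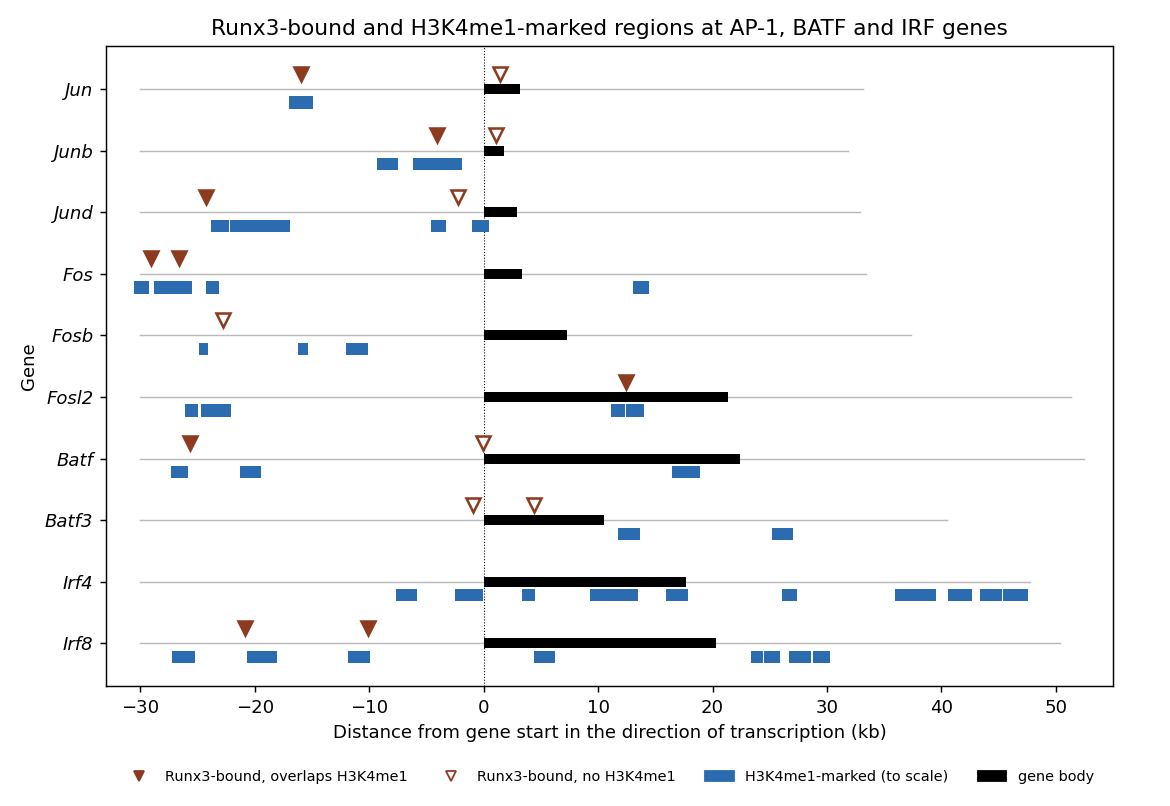
Position of each Runx3-bound region (triangles, filled where the region overlapped H3K4me1) and H3K4me1-marked region (blue bars, to scale) at the 10 genes, with distance from the gene start in kb on the x axis, 1 row per gene, gene bodies in black and grey lines for the searched windows. Open triangles lie near the starts of Jun, Junb, Jund, Batf and Batf3, and the row of Irf4 holds 10 marked regions and 0 Runx3-bound regions.

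The Jun genes each had a Runx3-bound region near the gene without H3K4me1 and a further one upstream that overlapped H3K4me1. For Jund the further one lay 0.248 kb from the Lsm4 start, and H3K4me1 covered 11.7% of its length but not its centre. This arrangement was not particular to the Jun genes, as Batf also had it. Over the whole Runx3 list, 28% of regions within 5 kb of a protein-coding gene start and 70.5% of those farther away overlapped H3K4me1. Jun (chromosome 4, 94715725 to 94718913, minus strand) encodes the c-Jun subunit and had a region of 444 bp (chr4:94717249-94717692) in its coding exon, 1.44 kb downstream of the start. Its nearest H3K4me1-marked region was 16.2 kb away. The other Jun region (chr4:94734642-94735056, 415 bp) lay 15.9 kb upstream in an intron of the noncoding transcript BC042782, wholly inside the single marked region of this gene (2069 bp). It was the narrowest of the 16 regions.

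Junb (chromosome 8, 87500811 to 87502617, minus strand), which encodes a Jun protein that is abundant in activated T cells, showed the same arrangement within a shorter distance. A region of 437 bp (chr8:87501296-87501732) over coding and UTR sequence of its exon was centred 1.10 kb downstream of the start and was 2.76 kb from H3K4me1. The second (chr8:87506351-87507033, 683 bp) was intergenic, 4.08 kb upstream, and lay wholly inside a marked region of 2711 bp. Both also lay within 30 kb of Prdx2, Rtbdn, Hook2, Best2 and Rnaseh2a, although the Junb start was the nearest.

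Jund (chromosome 8, 73221638 to 73224515, plus strand), which encodes the Jun protein that is broadly present in resting cells, had a region of 630 bp (chr8:73219042-73219671) 2.28 kb upstream of its start. This region overlapped no H3K4me1 but lay between marked regions centred 3.91 kb and 0.292 kb upstream of the start, with 0.662 kb and 0.946 kb of unmarked sequence on either side. The marked region centred 0.292 kb upstream covered the Jund start itself. Such cover was found at none of the other 9 genes and at 1.29% of all protein-coding genes. The second Runx3-bound region assigned to Jund (chr8:73196832-73197959) was the widest of the 16 with 1128 bp, but it covered coding exon and UTR of Lsm4, 0.248 kb from the Lsm4 start and 24.2 kb from that of Jund.

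The regions in the coding exons of Jun and Junb were compared by sequence. The 36-base stretch around the RUNX motif of the Junb region was aligned without gaps along the gene bodies of Jun and Jund, and the best match of each is printed below that of Junb. These were chr8:87501592-87501627, minus strand for Junb, chr4:94717250-94717285, minus strand for Jun and chr8:73223649-73223684, plus strand for Jund.
Junb: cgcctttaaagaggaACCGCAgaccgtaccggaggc
Jun: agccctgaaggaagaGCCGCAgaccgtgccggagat
Jund: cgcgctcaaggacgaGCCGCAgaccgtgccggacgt

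All 3 stretches lay in coding exon, 27 of 36 bases (75%) of Jun and 27 of 36 of Jund were identical to Junb, and each held 1 RUNX motif at the same place. The motif was TGCGGT in Junb and TGCGGC in Jun and Jund, read on the strand opposite to the gene. The stretches of Jun and Junb lay inside Runx3-bound regions and that of Jund did not. The stretch was cut around the Junb motif, and how often related coding sequence shares such a motif was not tested. In both bound regions the shared motif was off centre, by 96 bp in Junb and 202 bp in Jun. The Jun region held 3 TGCGGC motifs, and the shared one was the farthest from the centre. The others lay 140 and 110 bp from it, so the central 200 bp of the Jun region held no RUNX motif. A Runx3-bound region over its own coding exon was found at Jun, Junb and Batf, compared to 5.78% of all protein-coding genes. With the region at Lsm4, 4 of the 16 regions lay over a coding exon of any gene (14.3% of all Runx3-bound regions).

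Among the Fos genes, Runx3 was found at a distance from the gene start or inside the gene. Fos (chromosome 12, 86814840 to 86818223, plus strand), an immediate early gene encoding c-Fos, had a pair of intergenic regions 29.1 kb (chr12:86785448-86786012, 565 bp) and 26.7 kb (chr12:86787737-86788641, 905 bp) upstream. Fos was the protein-coding gene with the nearest start to both. The second lay wholly inside a marked region of 3348 bp and held 4 TGTGGT motifs, one of them 4 bp from its centre. The first was covered by H3K4me1 over 25.3% of its length, at its left end, and its centre lay in the gap before the 3348 bp region. Both were close to the limit of the searched window, and the nearer edge of the closest one was 26.2 kb from the Fos start.

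Fosb (chromosome 7, 19888070 to 19895394, minus strand) encodes a further Fos protein and had 1 region (chr7:19917951-19918466, 516 bp) 22.8 kb upstream. The nearest protein-coding start was that of Ercc1, a DNA repair gene, at 11.9 kb. The region overlapped no H3K4me1, the nearest being 0.996 kb away, and 65.3% of its bases were G or C. Fosl2 (chromosome 5, 32438845 to 32460204, plus strand) encodes Fra-2 and had 1 region in an intron (chr5:32451022-32451517, 496 bp), 12.4 kb downstream of its start. It bridged the gap between H3K4me1-marked regions of 1175 bp and 1579 bp, which covered 71% of it but not its centre. It was the one region of the 16 that touched 2 marked regions, compared to 7.53% of all Runx3-bound regions.

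The BATF genes were those with a Runx3-bound region centred within 1 kb of the start. For Batf3 this rested on the limit, as its region was centred at 0.972 kb and that of Junb at 1.10 kb. By the nearer edge of the region, both were within 1 kb (0.736 kb for Batf3 and 0.885 kb for Junb). Batf (chromosome 12, 87027619 to 87050037, plus strand) had a region of 585 bp (chr12:87027311-87027895) centred 0.016 kb upstream of its start and reaching into the coding exon. It was the one gene of the 10 with Runx3 over the start itself, compared to 6.46% of all genes. The region held 3 RUNX motifs, of which TGTGGT was found 80 bp before and 14 bp after the centre. No H3K4me1 was found within 16.2 kb of it. The second Batf region (chr12:87001728-87002193, 466 bp) lay 25.7 kb upstream and was covered by H3K4me1 over 20.8% of its length. It also fell within 30 kb of the neighbouring gene Jdp2.

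Batf3 (chromosome 1, 192922293 to 192932822, plus strand) had regions 0.972 kb upstream (chr1:192921085-192921557, 473 bp) and 4.38 kb downstream of its start in an intron (chr1:192926434-192926905, 472 bp). Neither overlapped H3K4me1, which was 12.5 kb and 7.13 kb away. The marked regions of Batf3 lay downstream of the gene, 12.7 kb and 26.2 kb from its start. With Batf, 2 of the 10 genes had a Runx3-bound region centred within 1 kb of the gene start (the 5′ end of the gene record), compared to 8.84% of all genes. By region, 3 of the 16 lay within 1 kb of any protein-coding gene start (19.5% of all Runx3-bound regions), the third being that at Lsm4. Within 2 kb the count of genes was 4, as the regions of Jun and Junb were then included.

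The IRF genes carried the most H3K4me1 of the 10 genes and differed in Runx3. Irf8 (chromosome 8, 123260258 to 123280594, plus strand) had 8 marked regions, a number reached by 3.36% of all genes, which covered 17.8% of its window. Its Runx3-bound regions lay 20.8 kb (chr8:123239234-123239666, 433 bp) and 10.1 kb (chr8:123249919-123250425, 507 bp) upstream, in an intron of the overlapping gene model Gm20388. The second was covered by H3K4me1 over 78.7% of its length. The first touched a marked region of 2622 bp with 11.5% of its length.

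Irf4 (chromosome 13, 30841095 to 30858796, plus strand), whose product is induced in T cells in proportion to TCR signal strength, had 10 marked regions and 0 Runx3-bound regions. As many marked regions were found at 1.86% of all genes (416), and H3K4me1 covered 29.2% of the Irf4 window. The widest (4135 bp) lay over coding exon 11.4 kb downstream of the start, and another (2487 bp) ended just upstream of the start. Of the 416 genes with 10 or more marked regions, 3 had no Runx3-bound region (0.721%, or 0.0134% of all protein-coding genes). These were Irf4, Ahdc1 and AB041803. The last 2 were named after the values were seen, and their marked regions numbered 12 each. The limit of 10 was the count of Irf4 itself, so the share of 0.721% restates the values of Irf4 and is not a separate result. With exactly 8 and exactly 9 marked regions, 3 genes each also had no Runx3-bound region. The median of the 416 genes was 4 Runx3-bound regions, but their windows were also longer, with a median of 154 kb compared to 77.7 kb for Irf4.

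The nearest Runx3-bound regions on either side of the Irf4 start were in Dusp22, centred 67.2 kb upstream (chr13:30773558-30774133), and in Exoc2, centred 65.4 kb downstream (chr13:30906308-30906743). Both overlapped H3K4me1. The 132 kb between them held 12 marked regions. Of the 9115 intervals between neighbouring Runx3-bound regions of a chromosome, 28 (0.307%) held as many. The interval was chosen after the Irf4 counts were seen, and its 12 marked regions include the 10 counted at Irf4. The share thus restates that count and is not a separate result. Lengths of the other intervals were not compared. RUNX motifs were present in the Irf4 regions. The 10 regions held 50 motifs, or 2.20 per kb, compared to 2.20 per kb in all H3K4me1-marked regions, 2.36 in those with Runx3 and 2.11 in those without. The depth behind the Irf4 regions is unknown, so Runx3 binding below the calling threshold could not have been seen. For these cells the paper reports fewer filtered reads for Runx3 than for H3K4me1. What this meant for the counts at Irf4 was not tested. The plot of both counts per gene sets Irf4 beside the other genes.

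**Figure D2:**
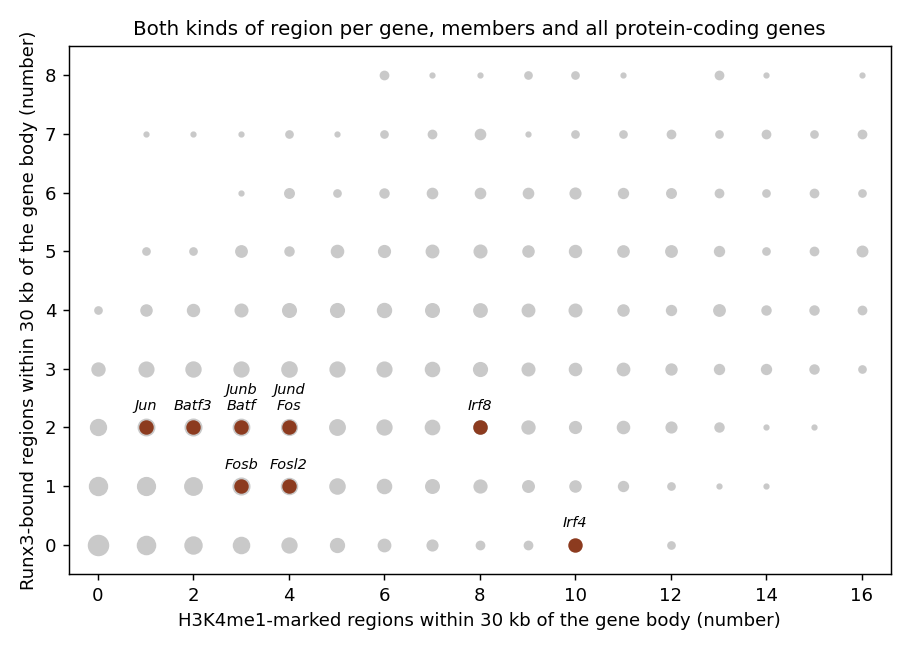
Number of Runx3-bound (y axis) against H3K4me1-marked regions (x axis) within 30 kb of the gene body, with the 10 genes in brown and all protein-coding genes in grey, the dot area growing with the logarithm of the number of genes (86 genes beyond 8 Runx3-bound or 16 marked regions are not drawn). Irf4 lies at 10 marked and 0 Runx3-bound regions, while the other genes have 1 or 2 Runx3-bound regions.

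Overlap with H3K4me1 was then counted over the 16 regions. H3K4me1 overlapped 9 of the 16 (56.2%, interval 33.2 to 76.9%), compared to 57.3% of all Runx3-bound regions. The centre of the region lay in an H3K4me1-marked region in 4 cases (25%, interval 10.2 to 49.5%), compared to 46.3% of all. In 3 cases the whole region was inside (18.8%, interval 6.59 to 43%), compared to 34.7% of all. These intervals are wide and each holds the share of the whole list. They treat the 16 regions as independent, although 7 genes had 2 each. Whether the shares at these genes differ from those of the whole list was not tested. By distance, 2 of the 8 regions within 5 kb of a protein-coding gene start overlapped H3K4me1 (28% of all such Runx3-bound regions), and 7 of the 8 farther away did so (70.5% of all such regions). The 2 near a start were that at Lsm4 and the upstream region of Junb, and the distal region without H3K4me1 was that near Fosb.

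Counted by marked region, 10 of the 42 (23.8%) held a Runx3-bound region, compared to 29.2% of all marked regions. They were found at Fos, Fosl2 and Irf8 (2 each), and at Jun, Junb, Jund and Batf (1 each). The remaining 32 included all marked regions of Fosb, Batf3 and Irf4. The Runx3-bound regions were 415 to 1128 bp wide with a median of 502 bp (521 bp over the whole list), and the marked regions 783 to 5254 bp with a median of 1854 bp (1592 bp over the whole list).

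RUNX motifs were searched in the central 200 bp of each region on both strands. Of the 16 regions, 12 held at least 1 (75%, interval 50.5 to 89.8%), while the share was 78.7% over the whole Runx3 list. Over the whole region, 15 of 16 held a RUNX motif (92.6% of all). The exception was the region 25.7 kb upstream of Batf. TGTGGT was found in the centre of 9 regions (54.3% of all), TGCGGT in 3 (13.7% of all), TGTGGC in 1 (26.8% of all) and TGCGGC in 0 (8.41% of all). The TGCGGT form was found at Jund, Junb and in the upstream region of Jun. Centres with 2 or more RUNX motifs were those of Batf at the start and both Irf8 regions, that is 3 of 16, compared to 37.1% of all.

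**Figure D3:**
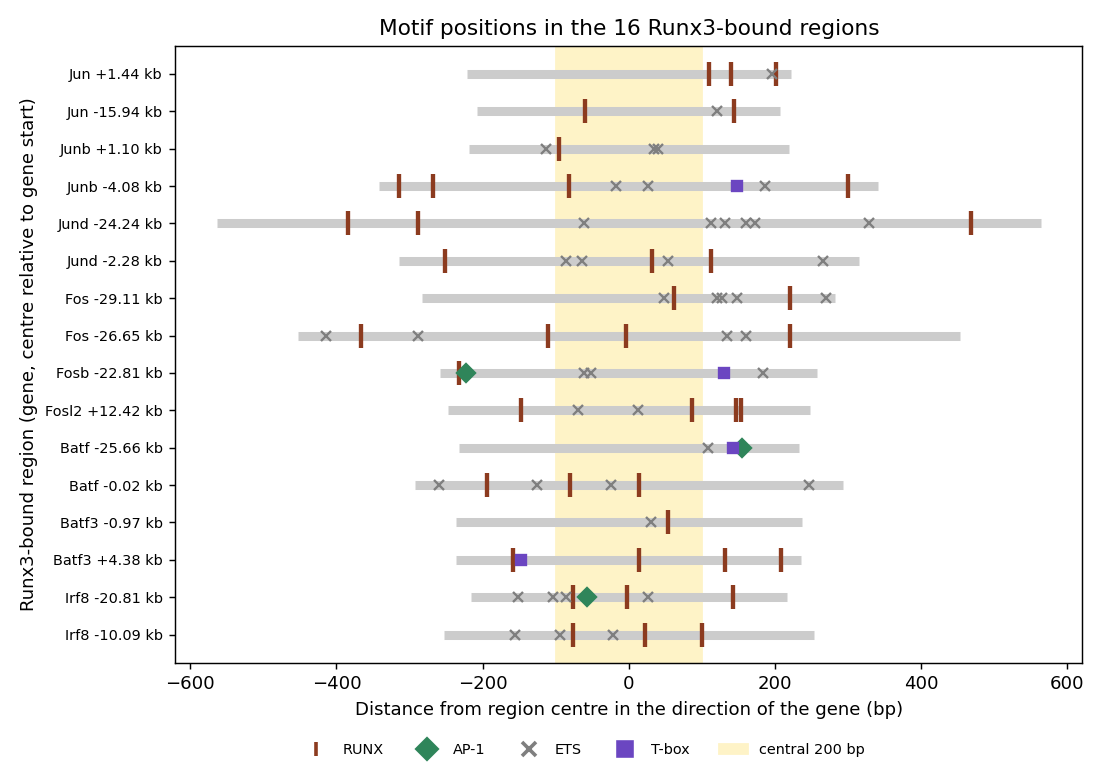
Positions of RUNX (bars), AP-1 (diamonds), ETS (crosses) and T-box (squares) motifs in the 16 Runx3-bound regions, with distance from the region centre in bp on the x axis in the direction of the gene, 1 row per region, grey lines for the called width and a shaded band for the central 200 bp. AP-1 motifs occur in 3 rows, those of Fosb, Batf at -25.66 kb and Irf8 at -20.81 kb.

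The AP-1 motif, to which the products of the Jun, Fos and Batf genes bind, was found in the centre of 1 region (6.25%, interval 1.11 to 28.3%), compared to 8.72% of all Runx3-bound regions, and anywhere in 3 regions (18.8%), compared to 18.7% of all. In the Irf8 region, TGACTCA lay 13 bp from a TGTGGC motif, and a TGTGGT motif lay 2 bp from the region centre. In the Fosb region, the AP-1 motif lay 2 bp from a TGCGGC motif, 223 bp from the centre. In the Batf region, TGACTCA lay 155 bp from the centre, beside a T-box motif (GGTGTGA) and without RUNX motif. Thus 2 of 16 regions held a RUNX and an AP-1 motif not more than 50 bp apart (7.74% of all).

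Among the other motifs, ETS (GGAA after A or C and before A or G) was found in the centre of 11 regions (66.1% of all Runx3-bound regions) and anywhere in 15 (88.9% of all), the exception being the intronic region of Batf3. The IRF motif (GAAA repeated after a gap of 2 bases) was found in 0 centres (3.92% of all) and anywhere in 1 region (8.6% of all), that 29.1 kb upstream of Fos, with the letters GAAAAGGAAA. The composite BATF and IRF motifs, that is an AP-1 motif directly after GAAA or 4 bases after TTTC, were found in none of the 16 regions (0.339% of all centres and 0.865% of all whole regions), nor in any of the 42 marked regions (2.16% of all marked regions). The CRE motif TGACGTCA was also found in none (0.941% and 1.63% of all). T-box motifs were found in 0 centres (5.32% of all) and anywhere in 4 regions (11.3% of all), at Junb, Fosb, Batf and Batf3. A composite match also holds an AP-1 match by construction, and a match is not a binding site.

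Fos and Batf both lie on chromosome 12 with Jdp2, which encodes a repressor of AP-1, between them. Over the 295 kb from 30 kb upstream of Fos to 30 kb downstream of Batf there were 5 Runx3-bound and 17 H3K4me1-marked regions. Besides those at Fos and Batf, 1 Runx3-bound region lay in an intron of Jdp2 (chr12:86965539-86966171, 633 bp). It touched 2 marked regions, as the Fosl2 region did. Of the 5 regions, 4 overlapped H3K4me1, the exception being that over the Batf start. Within 30 kb of its body, Jdp2 had 12 marked regions.

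**Figure D4:**
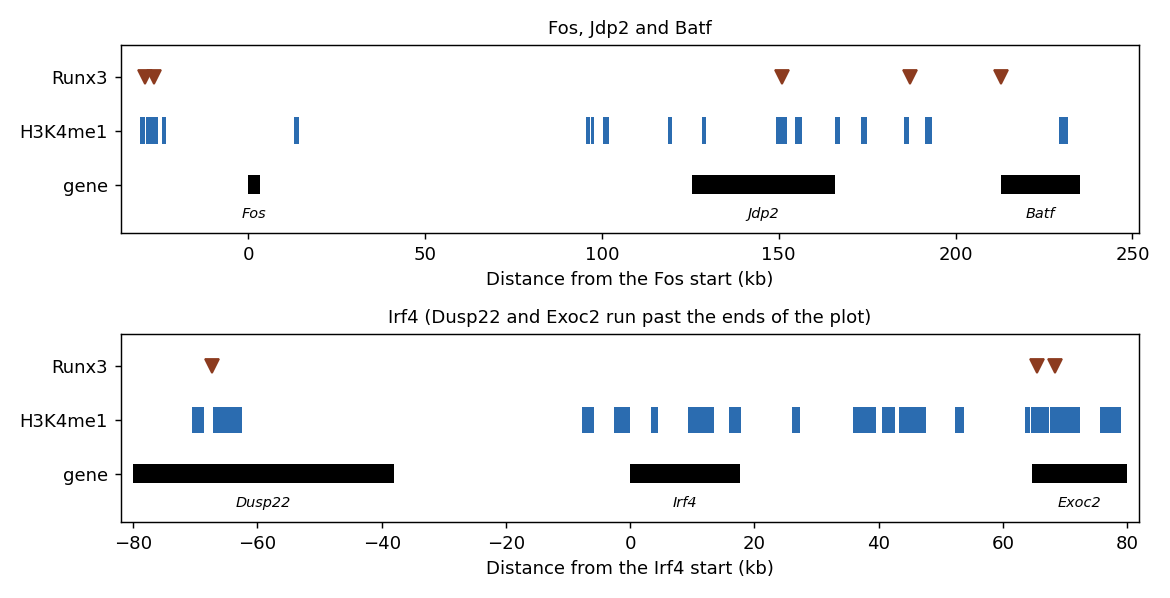
Runx3-bound regions (triangles), H3K4me1-marked regions (blue bars, to scale) and genes (black) around Fos, Jdp2 and Batf (upper panel) and around Irf4 (lower panel), with distance from the Fos or Irf4 start in kb on the x axis. The upper panel holds 5 Runx3-bound regions, and in the lower panel 12 marked regions lie between the neighbouring Runx3-bound regions in Dusp22 and Exoc2.

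A further 25 genes of the AP-1, ATF, CNC, MAF and IRF families were counted in the same way. Runx3-bound regions were found at 14 of them (39.6% of all protein-coding genes) and H3K4me1-marked regions at 20 (44.6% of all). These were 40 and 116 different regions, and 24 of the 40 Runx3-bound regions overlapped H3K4me1, a share near the 57.3% of all Runx3-bound regions. Of the 40, 1 at Jdp2 was the upstream Batf region, which was also counted at the 10 genes. Some marked regions of Jdp2 were likewise those of Batf. Bach2, a repressor at AP-1 sites in T cells, had the most with 12 Runx3-bound and 33 marked regions over a gene of 347 kb. Among the IRF genes, Irf2 had 4 Runx3-bound and 15 marked regions, and Irf1, an interferon-induced activator, had 2 and 11. All Runx3-bound regions of both genes overlapped H3K4me1. Fosl1, which encodes Fra-1, had 3 Runx3-bound regions, none of them marked. Runx3-bound regions centred within 1 kb of the start were found at 4 of the 25 genes (8.84% of all), namely Atf4, Maff, Irf3 and Irf9. No Runx3-bound region was found at 11 genes, among them Batf2, Atf1, Atf2, Atf5, Atf7, Bach1, Nfe2l1 and Irf5. Of the 11, Bach1 and Nfe2l1 had the most marked regions with 3 each, compared to the 10 of Irf4.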

How the data were processed

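ChIP-seq of IL-2-activated CD8-TC had been aligned to mm9 by the authors with ELAND (reads of 40 to 42 bases, fragments of about 300 bp, unique alignments only). The authors called peaks with MACS on the joined reads of the repeats against joined NIS reads, scaling the larger set to the smaller, so that a region bound in 1 repeat may be included and repeated sequence is missed. The labels list 1 H3K4me1 library, while their protocol speaks of repeats. The deposited values were start and end positions, with 0 columns of scores. Overlap required at least 1 bp, and coordinates are counted from 1. Sequence was the NCBIM37 assembly (mm9). The 10 genes, the other family genes and the motifs were chosen with earlier results of these data known. Some genes of the lists are not reported here by name. Named regions were all Runx3-bound regions of the 10 genes. No test was run, since each list is 1 call on joined reads. Python 3.11.15, NumPy 2.4.6, SciPy 1.17.1 and matplotlib 3.10.9 were used, and overlap and motif functions were tested on simulated data. Alternatives were other flanks, centre overlap, merged or wide regions and other motif windows. Counting regions by the nearest gene start, the Irf4 interval, the distance classes, the cell type markers and the alignment of the Jun genes were chosen after the data were examined. The limit of 10 marked regions and the pairs of RUNX and AP-1 motifs were not planned either. The same holds for the intervals from Fos to Batf and from Batf3 to Atf3. Sequences had been planned for central AP-1 motifs and for the region nearest each start, so that of the upstream Batf region was an addition.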

Additional observations from a re-analysis of the deposited data

How the results depend on the processing

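Of 37 values recomputed for 7 results, 23 stayed within 1.5 times the count or within the interval of the share. With gene bodies alone, 5 Runx3-bound and 8 marked regions remained at the 10 genes, 5 genes had Runx3 (18.1% of all genes), 20% of the regions overlapped H3K4me1 and 0% held a central AP-1 motif. With 10 kb these were 9, 22, 7 genes (27.5% of all genes), 33.3% and 0%. With 50 kb they were 24, 60, 10 genes (47.9% of all genes), 54.2% and 16.7%, and Irf4 then had the Exoc2 region. With regions at least as wide as the median of their list, 6 Runx3-bound and 24 marked regions and 4 genes with Runx3 (25.7% of all genes) were left. By centre, 25% overlapped H3K4me1. Within 2 kb of the start, 4 genes had Runx3. Over the whole region, 93.8% held a RUNX motif. When regions nearest to the start of another gene (those at Lsm4 and Ercc1) were left out, a choice made after seeing the data, 14 regions at 8 genes remained and 57.1% overlapped H3K4me1. A stricter peak threshold could not be tried without scores. No paired analysis was possible because each list was called on joined reads and carries no replicate. The depth behind each region is unknown, so an uncalled region is not shown to lack Runx3.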

Other observations

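Batf3 and Atf3, which encodes a stress-induced ATF protein, are neighbours on chromosome 1. Over the 145 kb from 30 kb upstream of Batf3 to 30 kb past Atf3, 3 Runx3-bound and 3 H3K4me1-marked regions were found, and none of the Runx3-bound regions overlapped a marked one (57.3% of all Runx3-bound regions did so). With 3 regions this is a description of the interval only. Besides the regions of Batf3, the third (chr1:192975935-192976365, 431 bp) was intergenic, and the nearest protein-coding start was that of Fam71a.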
